A study of Bos taurus with 8 samples.

Results

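The genes described here are those of calcineurin, of the RCAN proteins that bind it, and of the NFAT transcription factors it acts on, in primary cultures of skeletal muscle cells from bulls. The list held 10 genes, namely PPP3CA, PPP3CB, PPP3CC, PPP3R1, RCAN1, RCAN2, RCAN3, NFATC1, NFATC3 and NFATC4. A gene was taken as measured where the RefSeq accession of a probe carried its symbol. That gave 9 probes of 7 genes, out of 21475 probes that are not controls and 7788 named genes, with 2 probes each for RCAN1 and NFATC1. PPP3CC, RCAN2 and NFATC4 had no matched probe and were not analysed here. The list was put together with earlier results of these arrays in view, and PPP3CA was chosen by its lower ratio in beef cells, so its ratios are a description with no test.

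The cells came from the semitendinosus muscle of 15-month-old bulls of 3 breeds, with 4 bulls of each. Limousin (LIM) and Hereford (HER) are kept for beef and Holstein-Friesian (HF) for milk. Muscle cells of all breeds were grown in medium with fetal bovine serum and harvested while proliferating, at 80% confluence, without induction of differentiation. They were mixed primary cultures, enriched for myoblasts and not sorted. Each of 8 two-colour arrays held RNA of 1 beef breed and of HF, 4 arrays with LIM in Cy5 (red) against HF in Cy3 (green) and 4 with HER in Cy3 against HF in Cy5. HF was the reference on every array, so both comparisons share it, and the labels do not say which HF bull was on which array.

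Calcineurin is a phosphatase switched on by calcium and calmodulin. It is built from a catalytic A subunit, encoded by PPP3CA, PPP3CB or PPP3CC, and a calcium-binding B subunit, which PPP3R1 encodes in most tissues. Its best known substrates are the NFAT factors, which enter the nucleus when calcineurin removes their phosphates, while kinases such as GSK3 and DYRK put the phosphates back. In skeletal muscle the pathway is known for its part in the slow-fibre programme and in the differentiation and growth of muscle cells. RCAN proteins bind calcineurin and modulate it, and RCAN1 is itself a known NFAT target.

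Values are log2 ratios of the beef breed over HF, so that 1 is a doubling and negative values are lower in the beef breed. A gene was called at a Benjamini-Hochberg adjusted p of at most 0.05 (limma, over all 17631 probes tested) together with a change of 1.3-fold or more. The beef mean is the mean of the LIM and HER ratios, in which a dye effect of a probe cancels because the dyes are reversed. The fit takes the arrays as independent. As 4 HF bulls served 8 arrays, HF bulls recurred across arrays. Where the same HF bull served on a LIM and a HER array, both ratios share its deviation. The standard errors and p-values of the beef mean may then be too small, and n = 8 counts arrays, not HF bulls. The difference LIM minus HER coincides with dye orientation and slide, and breed, dye and slide cannot be told apart in it. All 9 probes were well above background in all 16 channels.

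LIM replicate 4 had the lowest limma array weight, 0.299 against 0.806 to 1.89 on the others. Its correlation across probes was 0.083 with HER replicate 3 and 0.302 to 0.558 with the rest. HER replicate 3 was itself at 0.302 with LIM replicate 2 and 0.331 with HER replicate 4. Markers of the cell types in culture also moved with the breed. All 6 tested genes of differentiating muscle were called higher in both comparisons, with array means of the list from 2.30 to 3.70 in LIM and from 2.40 to 3.31 in HER. Their summed intensity was 2703 to 8303 in HF and 44900 to 97920 in LIM, and 1567 to 9132 in HF and 13320 to 92920 in HER. CKM, which defines differentiated muscle, was well above background in 3 of 4 LIM channels and in no HF or HER channel. Of 6 tested genes of satellite cells and myoblasts, 4 were called higher in LIM and 4 in HER, and all 6 were well above background on both sides of every array. Their summed intensity was 17200 to 59520 in HF and 46760 to 117500 in LIM, and 11470 to 39490 in HF and 32870 to 96000 in HER. Of 8 fibroblast genes, 5 were called higher and PDGFRA lower in each comparison, with DCN called in LIM only and THY1 in HER only. A dimmer DCN probe went the other way, below HF on all 8 arrays at -0.404 in LIM and -0.295 in HER, and was not called. Their summed intensity was 63710 to 227500 in HF and 364600 to 788500 in LIM, and 55410 to 155400 in HF and 279600 to 545900 in HER. The mean fibroblast ratio was lowest on LIM replicate 4 (0.258) and HER replicate 4 (0.332), and reached 2.07 and 1.88 on the others. Of the other lists, genes called higher were 1 of 4 of smooth muscle in LIM and 2 of 4 in HER, 1 of 5 of adipocytes (with 1 lower), 0 of 2 of endothelium, 0 of 2 of dividing cells and 1 of 2 of leukocytes in each. Over all probes tested, 34.3% were called in LIM and 24.4% in HER, in either direction. In such bulk RNA, fewer cells of a type and less RNA per cell cannot be told apart. The part of cell composition in the ratios below was not tested.

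PPP3CA, the alpha catalytic subunit, was lower in the beef breed on all 8 arrays. On the LIM arrays its log2 ratio was -0.50, -0.72, -0.96 and -0.98 (replicates 1 to 4), and on the HER arrays -0.81, -0.65, -0.82 and -0.76. The 2 sets overlapped, and the HER values lay closer together. The mean was -0.79 ± 0.23 (SD, n = 4) in LIM and -0.76 ± 0.08 in HER, that is 1.73-fold and 1.70-fold lower than HF. The beef mean of -0.78 lay low among all probes tested, of which 8.80% were lower, while the median probe was at -0.04. The ratio was thus alike in size under both dye orientations. LIM minus HER was -0.03 with a 95% interval of -0.39 to 0.33 (limma adjusted p = 0.954). Choosing a gene as lower in both breeds also bears on this difference, so nothing is read from it.

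The processed intensity of PPP3CA shows the same gap within each array. On the log2 scale, HF lay between 12.87 and 12.99 in Cy3 and LIM between 11.9 and 12.49 in Cy5. With the dyes reversed, HF lay between 11.8 and 12.62 and HER between 10.98 and 11.96, and these ranges overlap although HER was below HF on each array. HER replicate 3 had the lowest HER level and the lowest HF level for this probe, with 10.98 for HER and 11.8 for HF. Within an array, the 2 spots of the probe differed by a median of 0.034 in log2 ratio and by 0.209 at most, on HER replicate 3.

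**Figure D1:**
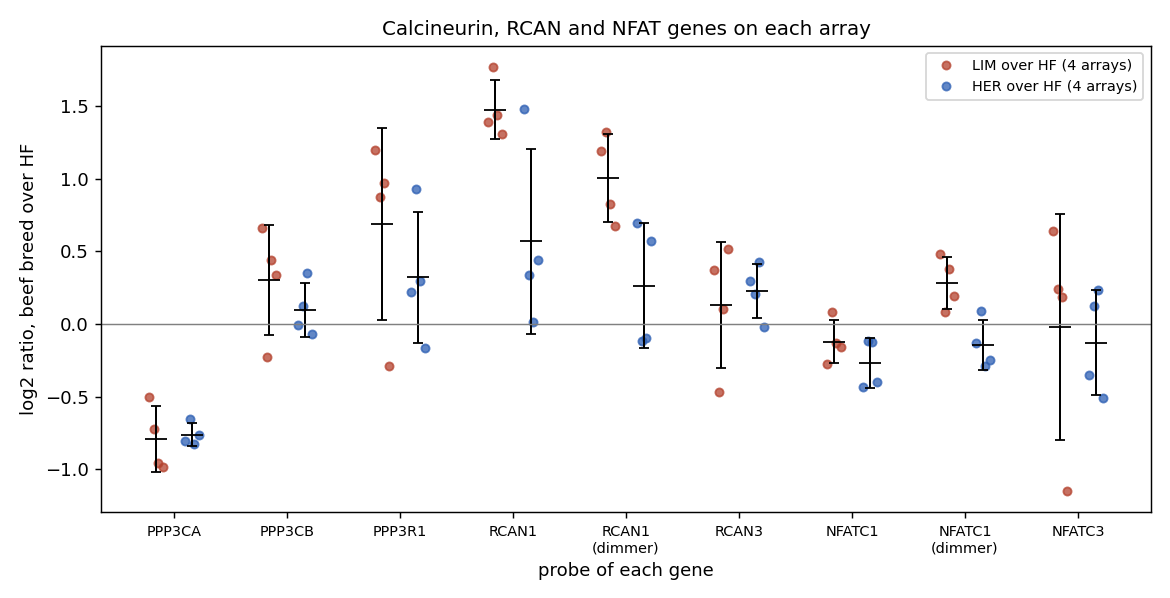
Log2 ratio of the beef breed over HF (vertical axis) for each of the 9 probes (horizontal axis), with 1 point per array, red for LIM and blue for HER, and the mean with its SD in black. PPP3CA lies below 0 on all 8 arrays, the brighter RCAN1 probe lies between 1.304 and 1.77 in LIM, and the low point of NFATC3 and of PPP3R1 in LIM is replicate 4.

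The beta catalytic subunit, PPP3CB, did not share this ratio. It was 0.66, -0.23, 0.44 and 0.33 on the LIM arrays and -0.01, 0.12, 0.35 and -0.07 on the HER arrays. LIM was above HF on 3 of 4 arrays and HER on 2 of 4. The means of 0.30 ± 0.38 in LIM (95% interval -0.05 to 0.65, limma adjusted p = 0.152) and 0.10 ± 0.19 in HER (-0.25 to 0.44, adjusted p = 0.661) were not called. Without LIM replicate 2, the LIM mean was 0.48 and was called (adjusted p = 0.0394, against 0.0664 to 0.441 under the other 20 settings). PPP3CB had the higher ratio of the 2 catalytic subunits on all 8 arrays, by 0.49 to 1.40 in log2 with a mean of 0.98 ± 0.33 (SD, n = 8). As PPP3CA was picked for its low ratio, this gap is a description with no test.

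PPP3R1, the regulatory B subunit, had the widest LIM spread of the 3 calcineurin subunits. Its log2 ratio was 1.19, 0.87, 0.97 and -0.29 in LIM, and 0.22, 0.93, 0.30 and -0.16 in HER. LIM replicate 4 was the single LIM array below HF, and HER replicate 4 the single HER array. On both, HF had its highest log2 intensity of the set, 9.732 on LIM replicate 4 and 9.499 on HER replicate 4. The LIM side was also at its lowest on LIM replicate 4, at 9.445. The mean was 0.69 ± 0.66 in LIM (95% interval 0.11 to 1.27, limma adjusted p = 0.0654) and 0.32 ± 0.45 in HER (-0.26 to 0.90, adjusted p = 0.374), and neither was called. The beef mean of 0.50 (SE 0.18) was called, at an adjusted p of 0.0471. That call rests on single arrays: it was lost when HER replicate 1, 2 or 3 or LIM replicate 1, 2 or 3 was left out (adjusted p = 0.0835 to 0.119), and over 19 settings it stood in 10. Without LIM replicate 4, the LIM mean rose to 1.01 and was called (adjusted p = 0.00706, over a range of 0.00685 to 0.257 under 21 settings). Like PPP3CB, PPP3R1 had a higher ratio than PPP3CA on all 8 arrays, by 0.60 to 1.92, again a description with no test.

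**Figure D2:**
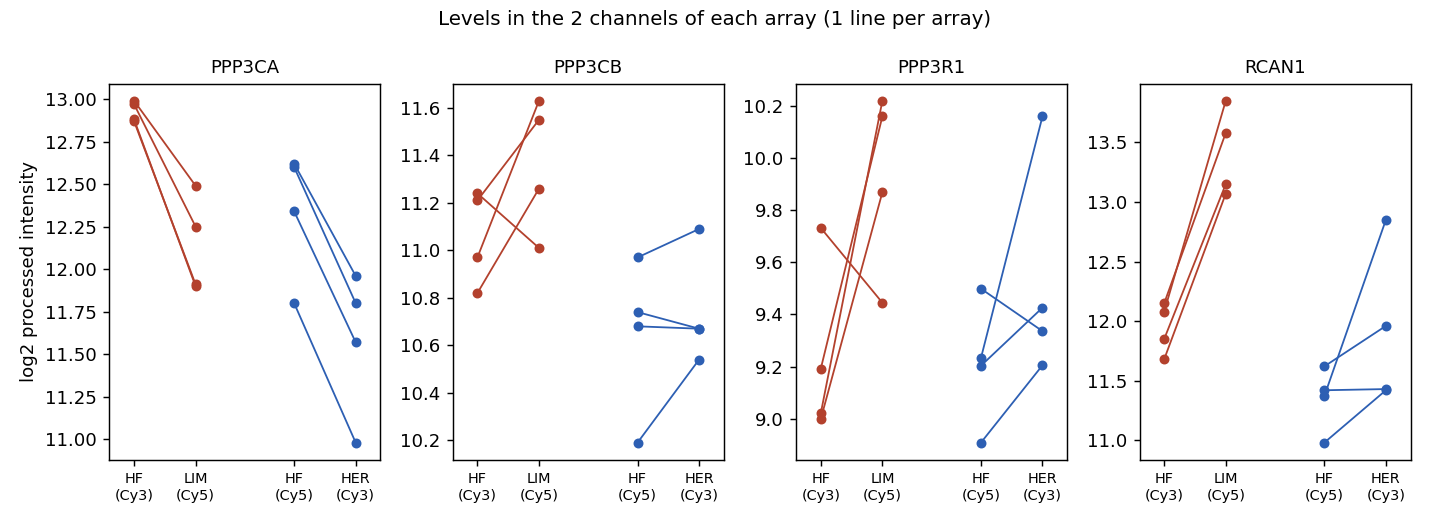
Log2 processed intensity (vertical axis, with its own scale in each panel) of PPP3CA, PPP3CB, PPP3R1 and the brighter RCAN1 probe in both channels of each array, HF and LIM in red and HF and HER in blue, with 1 line per array. The PPP3CA lines all fall from HF to the beef breed, the RCAN1 lines all rise, and the PPP3CB and PPP3R1 lines run both ways.

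RCAN1, the calcium-induced regulator of calcineurin, rose in LIM. The brighter probe gave 1.39, 1.77, 1.44 and 1.304 on the LIM arrays, all of them above HF. On the HER arrays it gave 1.48, 0.34, 0.02 and 0.44, with replicate 1 in the LIM range and the others below it. The LIM mean was 1.47 ± 0.20, that is 2.78-fold above HF (limma adjusted p = 0.00176), and it was called under all 21 other settings (adjusted p = 0.000618 to 0.0365). The HER mean was 0.57 ± 0.64 (95% interval 0.07 to 1.06, adjusted p = 0.0863) and was not called under any setting of the adjusted test. Without HER replicate 1 it was 0.26. The beef mean of 1.02 (SE 0.15) was called at an adjusted p of 0.00108, and remained so under all 19 other settings.

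The dimmer RCAN1 probe gave smaller ratios with the same order of breeds. It read 1.19, 1.32, 0.82 and 0.68 in LIM and 0.69, -0.12, -0.09 and 0.57 in HER. The LIM mean was 1.00 ± 0.30 and was called (limma adjusted p = 0.00386), and the HER mean was 0.26 ± 0.43 (adjusted p = 0.302). The 2 probes had the same sign on 6 of 8 arrays, and the brighter one was higher by a mean of 0.39 ± 0.31. Which RCAN1 transcripts each probe reads is not given in the sources used here. For the brighter probe, LIM minus HER was 0.91 with a 95% interval of 0.21 to 1.61, and it was not called (limma adjusted p = 0.228).

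RCAN3, the third RCAN gene, stayed near HF. It read 0.37, -0.47, 0.11 and 0.51 in LIM and 0.30, 0.21, 0.42 and -0.02 in HER. LIM replicate 2 and HER replicate 4 were the arrays below 0. The means of 0.13 ± 0.43 in LIM (adjusted p = 0.562) and 0.23 ± 0.19 in HER (adjusted p = 0.333, both limma) were not called, and the beef mean was 0.18. RCAN1 was above RCAN3 on 7 of 8 arrays, by a mean of 0.84 ± 0.81.

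NFATC1, the NFAT factor known for its own induction by NFAT, had low ratios of either sign. The brighter probe read -0.28, 0.08, -0.13 and -0.16 in LIM and -0.43, -0.12, -0.12 and -0.40 in HER. All HER arrays and 3 of 4 LIM arrays were below HF, with means of -0.12 ± 0.15 in LIM (limma adjusted p = 0.408) and -0.27 ± 0.17 in HER (adjusted p = 0.101). The dimmer probe read 0.48, 0.08, 0.38 and 0.19 in LIM and -0.13, 0.09, -0.29 and -0.25 in HER. Its means were 0.28 ± 0.18 (adjusted p = 0.083) and -0.14 ± 0.17 (adjusted p = 0.366). The probes of NFATC1 thus disagreed, with the same sign on 4 of 8 arrays, and neither was called. The dimmer probe was also the least precise of the 9, since its 2 spots differed by a median of 0.41.

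NFATC3, another calcineurin-dependent NFAT factor, varied the most of the 9 probes between LIM arrays. It read 0.64, 0.24, 0.18 and -1.15 in LIM and -0.35, 0.12, 0.23 and -0.51 in HER. Replicate 4 was the lowest in both sets, and without LIM replicate 4 the LIM mean was 0.35 in place of -0.02 ± 0.78. Neither that LIM mean (limma adjusted p = 0.957) nor the HER mean of -0.13 ± 0.36 (adjusted p = 0.751) was called. The 95% interval of the LIM mean ran from -0.64 to 0.60.

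Of the 6 genes other than PPP3CA, 1 was called in LIM, RCAN1, where 34.3% of all probes tested were called. None was called in HER by limma, where 24.4% of all probes were called. With limma p-values taken before adjustment and the same fold threshold, 1 was (RCAN1), against 34.8% of all probes. The methods' t-test called 0, where at an unadjusted p it called 4823 of the 17631 probes. For the beef mean 2 were called, both higher, PPP3R1 and RCAN1, against 38.1% of all probes. The genes were proposed with these comparisons known, so nothing is read from these counts. For LIM minus HER, 0 of the 7 genes were called, against 0.233% of all probes. At an unadjusted p with the same fold, 1 was (RCAN1), against 14.1%. The methods' t-test at an unadjusted p also called 1, against 2135 of the 17631 probes.

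In order of the beef mean, the genes ran from RCAN1 (1.02) through PPP3R1 (0.50), PPP3CB (0.20), RCAN3 (0.18), NFATC3 (-0.08) and NFATC1 (-0.20) to PPP3CA (-0.78). Within arrays, RCAN1 lay above PPP3R1 by a mean of 0.52 ± 0.74, PPP3R1 above PPP3CB by 0.30 ± 0.55, and PPP3CB and RCAN3 differed by 0.02 ± 0.24 (SD, n = 8). The gap between RCAN3 and NFATC3 was 0.25 ± 0.71 and that between NFATC3 and NFATC1 0.12 ± 0.54. None of these 5 neighbouring gaps exceeded its spread over the arrays. The gap between NFATC1 and PPP3CA, of 0.58 ± 0.24, did, with PPP3CA the lower on all 8 arrays. As PPP3CA was picked for its low ratio, this gap and its other gaps are descriptions with no test. NFATC3 was above PPP3CA on 7 of 8 arrays, the exception being LIM replicate 4, and below PPP3R1 on all 8.

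**Figure D3:**
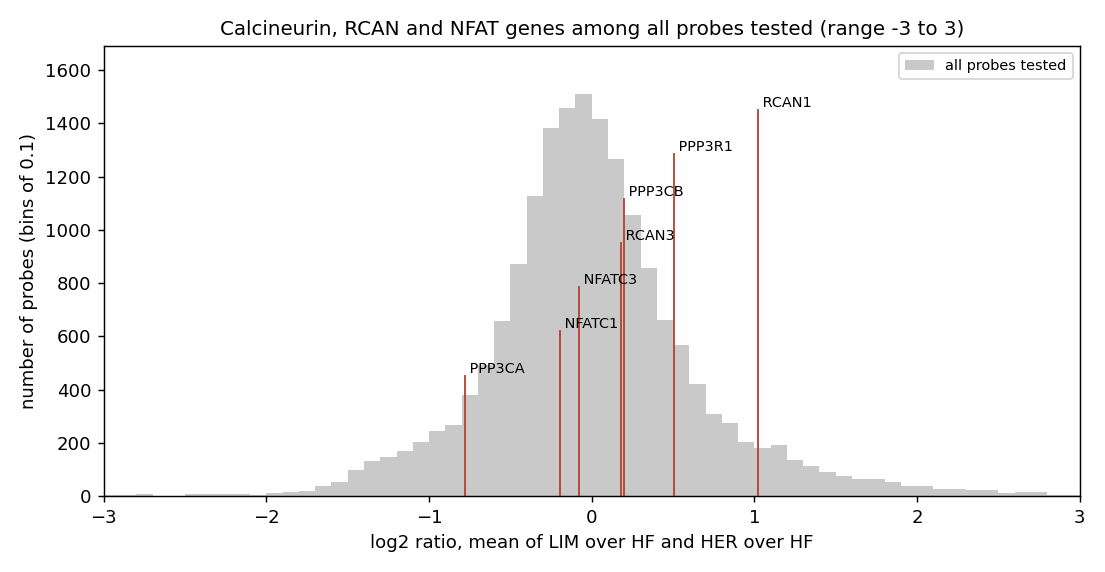
Number of probes (vertical axis, in bins of 0.1) by the mean log2 ratio of both beef breeds over HF (horizontal axis) for the 17631 probes tested, with the brightest probe of each gene as a red line whose height carries no value. PPP3CA lies in the lower tail at -0.78, RCAN1 in the upper tail at 1.02, and the other 5 between -0.20 and 0.50.

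The genes whose ratios were closest to those of PPP3CA over the 8 arrays came from outside the pathway. By root mean square difference, these were ADSL, an enzyme of purine synthesis (0.154), GTF2H5, a subunit of the transcription and repair factor TFIIH (0.154), and HCFC2, a host cell factor (0.162), out of 7204 named probes with a median of 0.888. Each was lower in the beef breed on all 8 arrays. The means in LIM and HER were -0.76 and -0.82 for ADSL, -0.84 and -0.73 for GTF2H5, and -0.63 and -0.72 for HCFC2. As these genes were picked for ratios close to those of PPP3CA, their sign and size follow from that choice and are no test. Most of the 7204 named probes lie outside the pathway, so nothing is read from the closest ones lying there. Within the family, NFATC1 was the closest to PPP3CA (0.623) and RCAN1 the farthest (1.91).

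Around these genes, 42 genes of 5 further lists of the pathway had a probe and 36 were tested. Of these, 6 were called higher and 7 lower in LIM, and 3 higher and 3 lower in HER, where 34.3% and 24.4% of all probes were called. The 13 of 36 in LIM are close to the LIM share. For the beef mean 5 were called higher and 8 lower, where 38.1% of all probes were called. Nothing is read from these counts. The median ratio of the 36 was 0.06 in LIM and 0.03 in HER, beside -0.01 and -0.06 over all probes. MYOZ3, CAMK2G, MYF5 and SLC2A4 passed in LIM and in HER alike, each in 1 direction. MYOZ2 is also in all these counts as higher. It cleared the filter on dim probes through the beef breeds alone, so its calls are no test. With normexp on local backgrounds as measured, the HER calls of all 5 were lost and none of the 36 was called in HER. That setting called 0 of all 17631 probes in HER, so nothing is read from this loss. In LIM, where it called 4233 probes, the calls of MYOZ3 (-0.37) and SLC2A4 (-0.38, limma adjusted p = 0.0925) were lost too. The LIM and HER counts depended on single arrays. They ran from 8 in LIM without LIM replicate 3 to 17 without LIM replicate 4. In HER they ran from 3 without HER replicate 2 to 9 without LIM replicate 4. Of all 17631 probes, the same settings called 3796 and 7011 in LIM, and 1527 and 5439 in HER. Genes called only in LIM or only in HER are named below after their values were seen. Of them, STIM1, DYRK1B, CAMK1, GAP43, MB, IL2 and IL6 were also called for the beef mean, and MEF2A and PTGS2 were not.

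Among genes of the calcium signal and of calcium entry, 5 were tested, 1 was called lower in LIM and none in HER. That one was STIM1, the calcium sensor of the endoplasmic reticulum, at -0.68 ± 0.46 in LIM (limma adjusted p = 0.0152) and -0.42 ± 0.14 in HER (adjusted p = 0.0981), below HF on all 8 arrays. ORAI1, the plasma membrane channel that STIM1 opens, was at 0.03 in LIM and 0.11 in HER. The IP3 receptor ITPR2 was at 0.05 and 0.04, its relative ITPR3 at 0.83 and 0.54, and the channel TRPC1 at 0.57 and 0.83, none of them called. TRPC6 was not well above background in any channel.

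Of the partners of calcineurin, 5 were tested. In both breeds MYOZ2 was counted as higher and MYOZ3 was called lower. Both are calsarcins, sarcomeric Z-disc proteins that bind calcineurin. MYOZ2 was well above background in 4 of 4 LIM and 3 of 4 HER channels, but in 1 of 4 HF channels of the LIM arrays and 0 of 4 of the HER arrays. It passed the filter on dim probes through the beef breeds alone, where it is high, so its ratios are a description with no test. It read 5.06, 2.81, 3.87 and 6.07 in LIM and 4.17, 3.61, 1.42 and 6.57 in HER, above HF on all 8 arrays. The size depends on the background treatment, since the LIM mean of 4.45 became 1.09 and 1.32 with normexp on local backgrounds as measured and replaced, and 1.75 with no subtraction. The HER mean of 3.94 became 0.76, 1.17 and 1.56. MYOZ3 went the other way, at -0.82, -0.79, -0.85 and -0.77 in LIM and -1.01, -0.42, -0.62 and -0.49 in HER. Its means were -0.81 ± 0.04 (adjusted p = 0.00166) and -0.63 ± 0.26 (adjusted p = 0.0087). The third calsarcin, MYOZ1, was at -0.03 and 0.21, the calcineurin-like protein CHP1 at 0.47 and -0.17, and the scaffold HOMER2 at -1.54 ± 1.76 and -0.91 ± 0.75, none of them called in either breed. The beef mean of HOMER2 was called lower, at -1.22 (limma adjusted p = 0.0372). PPP3R2, the other B subunit gene, was not well above background in any channel.

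Of 7 tested kinases that put phosphates back on NFAT, DYRK1B was called lower in LIM and none was called in HER. DYRK1B was below HF on all 8 arrays, at -1.10 ± 0.36 in LIM (limma adjusted p = 0.00199) and -0.35 ± 0.31 in HER (adjusted p = 0.146). Its LIM minus HER difference of -0.74 was not called (adjusted p = 0.206). GSK3A was at 0.05 in both breeds, GSK3B at -0.03 and -0.06, CSNK1D at 0.10 and 0.06 and PRKACA at 0.29 and 0.12, none of them called. A dimmer CSNK1D probe was at -0.56 in LIM and 0.19 in HER.

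Of 8 tested calcium-dependent regulators and calcineurin substrates, 3 were called higher and 1 lower in LIM and 1 higher in HER. CAMK2G, the gamma chain of calmodulin kinase II, was above HF on all 8 arrays, by 0.52 ± 0.19 in LIM (limma adjusted p = 0.0152) and 0.47 ± 0.26 in HER (adjusted p = 0.0315). The HER call of CAMK2G was lost without HER replicate 1, 2 or 3 and the LIM call without LIM replicate 1 or 3. In LIM, calmodulin kinase I (CAMK1) rose by 1.24 ± 0.69 (adjusted p = 0.0114) and the muscle transcription factor MEF2A by 0.45 ± 0.22 (adjusted p = 0.0256), while the calmodulin-binding protein GAP43 was at -0.57 ± 0.29 (adjusted p = 0.0112). In HER these stood at 0.66, -0.19 and -0.35. CAMK2D, HDAC5, CRTC2 and BAD were not called in either breed.

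Of 11 tested target genes, 2 were called higher and 3 lower in LIM, and 1 higher and 2 lower in HER. MYF5, a myogenic factor that also served as a myoblast marker, read 3.34, 1.92, 2.65 and 1.74 in LIM and 1.67, 2.00, 1.08 and 0.78 in HER. Its means were 2.41 ± 0.73 (limma adjusted p = 0.000883) and 1.38 ± 0.56 (adjusted p = 0.0131), and the HER call was lost without HER replicate 1 or 2. SLC2A4, which encodes the insulin-responsive glucose transporter GLUT4, fell in both breeds. It read -0.61, -0.59, -0.996 and -0.53 in LIM (mean -0.68 ± 0.21, adjusted p = 0.00503) and -1.05, -1.02, -1.10 and -1.55 in HER (mean -1.18 ± 0.25, adjusted p = 0.00258). With scaling between arrays, the LIM call of SLC2A4 was lost as well (-0.60, adjusted p = 0.0608).

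MYH7, the slow myosin heavy chain, was at 0.22 ± 0.23 in LIM and 0.31 ± 0.15 in HER and was not called in either (limma adjusted p = 0.181 and 0.0918). Myoglobin (MB), another slow-fibre gene, was above HF on all 8 arrays and called in LIM at 0.98 ± 0.62 (adjusted p = 0.0148), with 0.63 ± 0.42 in HER (adjusted p = 0.0874). PPARGC1A, a coactivator of oxidative metabolism, was at 0.74 in both breeds with SDs of 1.15 and 1.64, and a dimmer probe of it at 0.04 in LIM and 0.73 in HER. IGF2 was at 0.35 and -0.08 and ATP2A2, the slow-muscle calcium pump, at 0.35 and 0.38, none of them called. The inflammatory targets were IL2 and PTGS2, called lower in LIM, and IL6, called lower in HER. IL6 was at -2.41 ± 0.94 in HER (adjusted p = 0.0278) and -1.58 ± 1.89 in LIM (adjusted p = 0.0848), and PTGS2 at -1.67 ± 1.64 in LIM (adjusted p = 0.0424). IL2 was near background, since its probe was well above it in 3 LIM and 2 HF channels of the LIM arrays and in none of the HER arrays.

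**Figure D4:**
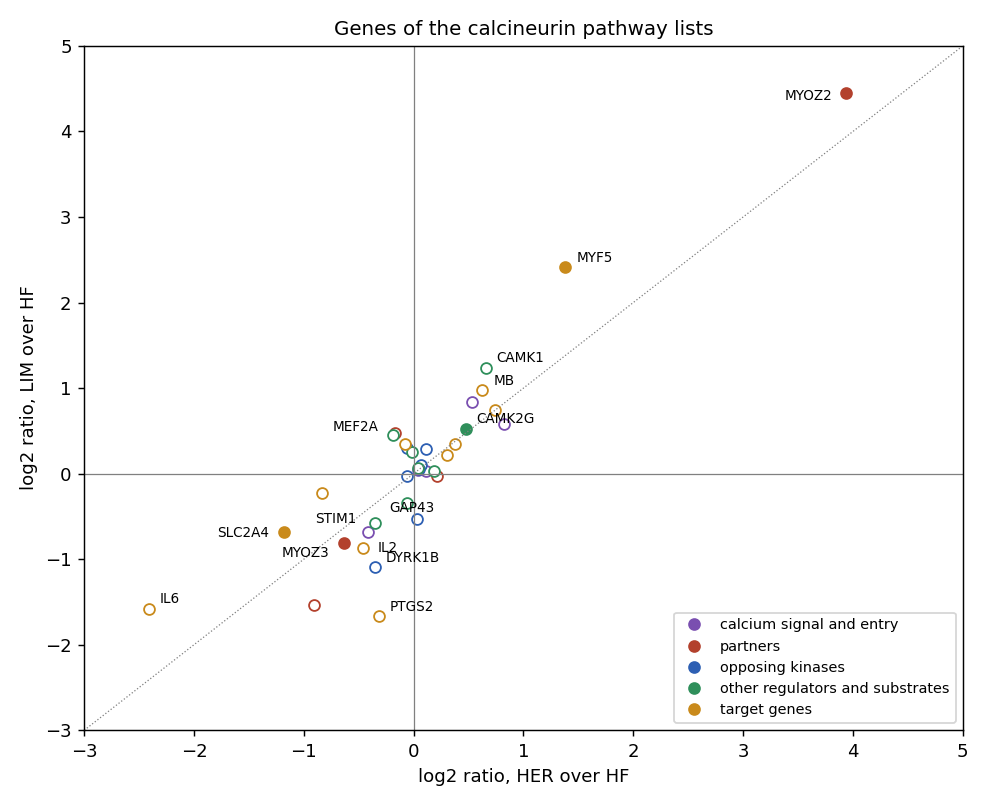
Log2 ratio of HER over HF (horizontal axis) against that of LIM over HF (vertical axis) for the 36 tested genes of the 5 pathway lists, 1 point per gene, coloured by list, filled where the gene was called in both comparisons, with a dotted line of equal ratios. Both axes share the HF side, and genes called in at least 1 comparison carry their names. MYOZ2, filled at the top right, passed the filter on dim probes through the beef breeds alone, so its fill is no test.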

How the data were processed

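RNA of muscle cell cultures was hybridised to 8 two-colour oligonucleotide arrays, and groups and dyes were taken from the sample labels. The authors deposited the output of Feature Extraction 10.7.3.1 for each array, with the intensity of each spot in red and green after the software's background subtraction and dye normalization, and their log10 ratio (red divided by green). The deposited series table holds the same log10 ratio (largest difference 0). No alignment is involved, and the array design names an older cattle assembly, so no coordinates are given.

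The log10 ratio was divided by log10 of 2, the sign was turned on the HER arrays (HER in Cy3), control spots and spots marked as outlying were left out, and the 2 spots of a probe were averaged. No spot was saturated. A probe was tested if the scanner marked it as well above background in 4 or more of the 16 channels (17631 of 21475 probes). Per channel, between 68.8% and 85.2% of probes carried that mark. One model of all 8 arrays was fitted with limma 3.58.1 in R 4.3.3 (lmFit, eBayes), giving LIM and HER a mean each. With 4 arrays per comparison, the number of arrays limits the precision. The fit was tested on simulated data.

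The files hold no gene names. Each accession was looked up in a RefSeq gene table (ARS-UCD2.0), where 7793 of 20693 were found, and the brightest probe stands for a gene. The members, the 5 pathway lists and the marker lists were chosen with earlier results of these data known. The genes named by a fixed rule are all members, pathway genes called in LIM and in HER in 1 direction, up to 4 uncalled genes per list in list order, and the 3 named probes closest to PPP3CA by root mean square difference. Pathway genes called only in LIM or only in HER were named outside that rule, after their values were seen. Alternatives covered background correction, scaling, the filter, thresholds, the methods' t-test, array weights, the replicate block and leaving out each array.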

Additional observations from a re-analysis of the deposited data

Results flagged for a closer look

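Of 90 sets of 4 arrays, 6 held a value far from the other 3 by Dixon's criterion at the 95% level, where chance alone gives about 1 in 20. None of them was a calcineurin, RCAN or NFAT gene. ITPR3 was at -1.01 on HER replicate 4 with the other HER arrays above 0, and GSK3B was at -0.79 on LIM replicate 4 with the other LIM arrays above 0. MAPK14 (0.45) and MYOZ1 (0.33) were high on LIM replicate 1, and ATP2A2 (0.86) was high on LIM replicate 3. SLC2A4 was lowest on HER replicate 4, at -1.55, and was below 0 on every array. All are log2 ratios over HF.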

How the results depend on the processing

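PPP3CA stayed below HF in both breeds under all 21 settings, from -0.89 to -0.70 in LIM and from -0.88 to -0.51 in HER. Its HER ratio moved by more than the spread between arrays with normexp on local backgrounds as measured (-0.51), on outlying backgrounds replaced (-0.66), with no background subtraction (-0.67) and with scaling between arrays (-0.88), and its beef mean with normexp as measured. Member calls other than PPP3CA changed as follows. In LIM, 2 were called with normexp as measured, at an unadjusted p, with array weights and with the replicate block. Of the 17631 probes, these settings called 4233, 7340, 7590 and 6357 in LIM. When leaving out 1 array, 1 to 2 genes were called in LIM (2 without LIM replicate 2 or 4). In HER, 1 was called at an unadjusted p, against 6142 probes, and 0 without any 1 array. For the beef mean, 1 was called with normexp as measured, with scaling and with no filter on dim probes, against 3289, 6670 and 6565 probes. When leaving out 1 array, 1 to 2 were called for the beef mean. For LIM minus HER, 1 was called at an unadjusted p by limma and by the methods' t-test, and 0 without any 1 array.

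Pathway genes called in HER were 0 with normexp as measured, 10 with scaling, 10 at an unadjusted p and 0 by the adjusted t-test, and 3 to 9 when leaving out 1 array. Over all probes, scaling called 5846 in HER and the unadjusted p 6142. In LIM 1 was called by the adjusted t-test, and 8 to 17 when leaving out 1 array. Over all probes, 6056 were called in LIM, 4302 in HER, 6723 for the beef mean and 41 for LIM minus HER. With normexp as measured these were 0 in HER, 3289 for the beef mean and 0 for LIM minus HER, and by the adjusted t-test 1002 in LIM and 2 in HER. On HER replicate 3, 38 local backgrounds in red exceeded 500 (median 37, highest 775167), and the SD of its log2 ratios under normexp was 0.275 as measured and 0.523 with outlying backgrounds replaced. LIM minus HER gave 1 with backgrounds replaced, 1 with no subtraction, 18 with scaling, 76 with no filter, 0 with all 16 channels required, 224 with array weights, 0 with the replicate block, 2135 by the unadjusted t-test and 2482 by unadjusted limma. Leaving out 1 array gave 3796 to 7011 in LIM, 1527 to 5439 in HER, 5856 to 7459 for the beef mean and 1 to 14 for LIM minus HER. The share of HER calls that were higher was 42.6%, and 54.8% with backgrounds replaced and 55.1% with no subtraction.

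PPP3R1 in LIM passed the threshold with normexp as measured, array weights, the replicate block (adjusted p = 0.0298) and without LIM replicate 4. Deviations of same-numbered arrays correlated at -0.24, 0.13, 0.30 and 0.54. Such ratios also carry the beef bulls, so they cannot decide whether the numbers pair HF bulls. Summed HF intensity kept 1 order of replicates in both sets for fibroblast, differentiating muscle and dividing-cell genes, and not for the other lists. For fibroblast genes it was 69010, 97680, 55410 and 155400 on HER arrays, and 72280, 109900, 63710 and 227500 on LIM arrays. The labels give no pairs, so the main fit took none. The replicate block changed no other call of the 7 calcineurin, RCAN and NFAT genes. No result changed direction past the threshold. The fit of each comparison on its own 4 arrays gave no beef mean or LIM minus HER, and the t-test no beef mean. The cause of these changes was not tested.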
